A study of Homo sapiens with 18 samples.

Results

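MIA PaCa-2 and BxPC-3, 2 human pancreatic ductal adenocarcinoma cell lines, were compared gene by gene as they stood without drug, in the libraries made after 6 h in the solvent DMSO. The comparison takes 3 DMSO libraries of each line, 6 of the 18 libraries of the series, and the 17026 endogenous genes of the authors' table. It uses no library treated with THZ1. The members were chosen by line and treatment alone.

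The series set 100 nM THZ1, a covalent inhibitor of the transcriptional kinase CDK7, against DMSO in 3 lines, PANC-1 and the 2 compared here, with 3 biological replicates for each of 6 groups. MIA PaCa-2 and BxPC-3 are established lines from primary tumours of different patients. As background, BxPC-3 has an activating in-frame deletion in BRAF and a homozygous loss of SMAD4. Both groups grew in the same F12 medium with 10% fetal bovine serum, β-glycerophosphate, L-ascorbic acid and antibiotics, and neither received THZ1. Polyadenylated RNA was sequenced after spike-in RNAs of the ERCC set had been added to the extracted RNA. Each group is 1 line, so that genotype, origin, cell state and growth rate of the 2 lines cannot be told apart as sources of a difference.

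Pancreatic ducts are lined by a polarised epithelium whose cells are joined by E-cadherin junctions and desmosomes, carry keratins 7, 8, 18 and 19, and sit on laminin-332 through hemidesmosomes. Carcinoma cells can leave this state in part: repressors of the ZEB and SNAI families bind E-box sequences in promoters of epithelial genes, and vimentin and fibrillar collagens are made instead. Pancreatic cancers are also grouped into a classical and a basal-like type by their expression, with GATA6 as a marker of the first.

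Levels are the authors' read-based values multiplied by 1 constant, so that the mean of the 6 libraries sums to 1000000. A level of 1 corresponds to between 13.5 reads in the shallowest and 20.3 in the deepest of the 6 libraries. Every gene of the authors' table has at least 1 read in each library, so a gene without reads in any library is missing from it. Listed genes that it lacks are given as not analysed, and genes silent in 1 line may be among them. This limits both the widest differences and the list counts. A difference is always the mean of log2(level + 1) in MIA PaCa-2 minus that in BxPC-3, with its standard error (SE) from limma. The added 1 understates the difference of genes that are near 0 in 1 line. Endogenous reads per library ran from 13237196 to 16889981 for BxPC-3 and from 14246574 to 20862888 for MIA PaCa-2. BxPC-3 had a summed ERCC level of 2833 ± 240.3 (SD, n = 3) and MIA PaCa-2 one of 2179 ± 139, a log2 difference of -0.38 (SE 0.09) with an exact two-sided permutation p of 0.1, the smallest that 3 against 3 libraries allow. Endogenous reads per ERCC read were accordingly 347 ± 31.5 and 469.6 ± 27.3. The median gene differed by 0.16 on the deposited scale, by 0.50 when libraries were scaled to their ERCC sums and by 0.00 with TMM factors. Small differences are therefore to be read against 0.16, and a list whose median changes sign with the scale is given with those values.

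The ductal label was checked first. Of 12 duct markers 7 were analysed, and both lines held keratin 8 (855 against 1731, BxPC-3 first) and keratin 18 (205 against 316), while keratins 7 and 19 separated them as described further on. Of 18 immune markers 3 were analysed, with means between 0.476 (ITGAM, BxPC-3) and 2.8 (ITGAM, MIA PaCa-2). The endothelial markers VWF (0.98 against 1.12) and ESAM (2.91 against 2.88) and the acinar amylases AMY2A (0.158 against 0.29) and AMY2B (0.769 against 0.735) were at a low level in both lines. The third endothelial marker tested, EGFL7, was higher in MIA PaCa-2, at 16.3 against 67.3 (1.99). Only CEL (9.4 against 3.86) and PRSS3 (45 against 0.184) of the acinar list stood higher, and both were higher in BxPC-3.

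Most of the transcriptome separated the 2 lines. Of 14273 genes tested, limma called 11754 (82.4%) at a Benjamini-Hochberg adjusted p under 0.05, of which 6914 (48.4% of those tested) were higher in MIA PaCa-2 and 4840 (33.9%) in BxPC-3. At least a 2-fold difference was called for 4432 genes (31.1%), 2619 (18.3%) higher in MIA PaCa-2 and 1813 (12.7%) in BxPC-3. At least a 4-fold difference was called for 1555 (10.9%), 761 (5.33%) and 794 (5.56%). The 3 libraries of a line did not overlap with those of the other for 11832 genes (82.9%). A call alone therefore says little, and the size of the difference is what sets a gene apart. Counts called in the lists below are to be read against the shares called over all genes tested. Calls were 58.8% higher in MIA PaCa-2 on the deposited scale, 75% with ERCC scaling and 50.5% with TMM factors. A further 2753 genes did not reach a level of 1 in 3 libraries and were not tested, while 471 tested genes were under 1 in every MIA PaCa-2 library and 743 in every BxPC-3 library. Of the 6266 genes with a mean of at least 20 in both lines, 5067 lay within 2-fold of each other and 176 were called at 4-fold or more.

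**Figure D1:**
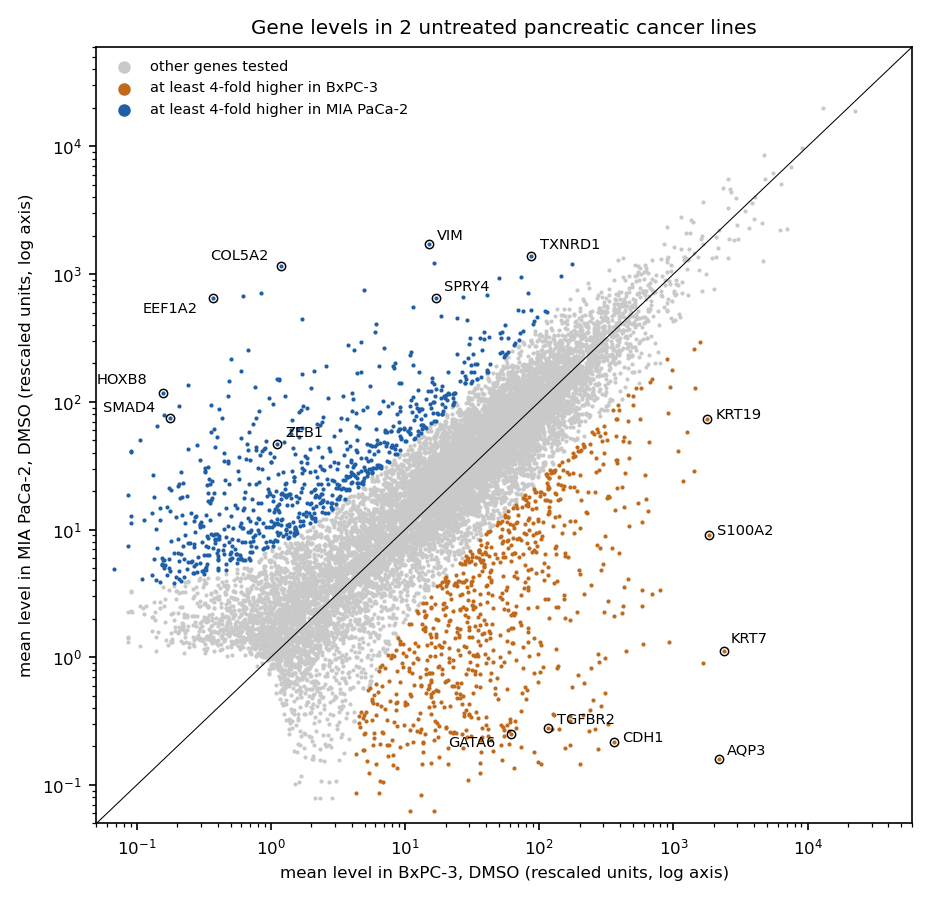
Mean level of each of the 14273 tested genes in BxPC-3 (horizontal) and MIA PaCa-2 (vertical) with DMSO, in rescaled units on log axes, n = 3 libraries per line; the line marks equal levels and colours mark genes called with at least a 4-fold difference. The 794 genes higher in BxPC-3 and the 761 higher in MIA PaCa-2 reach out to AQP3 at the lower right and to COL5A2 and VIM at the top left.

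Among the genes tested, all with reads in every library, the greatest difference was that of AQP3, an aquaglyceroporin of the cell membrane. Its levels were 2064, 2211 and 2230.1 in BxPC-3 and 0.148, 0.262 and 0.0716 in MIA PaCa-2. The MIA PaCa-2 libraries held only 1 to 4 reads each, and the ratio of the lines was 13381-fold (95% counting interval 6791 to 30994), with a log2 difference of -10.87 (SE 0.06, limma, adjusted p = 5.9e-29). KRT7, F3 (tissue factor, the trigger of coagulation), CDH1, TNS4 (a focal-adhesion tensin), IFI27, LCP1 (plastin, an actin bundler), ZNF185, CYP2S1, LCN2, COL4A6, TUBA4A, S100A2 and SFN (the 14-3-3 protein sigma) were others among the 15 genes furthest toward BxPC-3, with log2 differences from -10.15 for KRT7 to -7.51 for SFN. At the other end stood COL5A2, a chain of fibrillar collagen V, at 0.98, 0.964 and 1.61 in BxPC-3 and 1118, 1184 and 1172 in MIA PaCa-2. Its log2 difference was 9.06 (SE 0.08, limma, adjusted p = 4.5e-26), and no MIA PaCa-2 library came near the BxPC-3 range. EEF1A2 followed, the translation elongation factor form of muscle and neurons, at 0.23, 0.741 and 0.14 in BxPC-3 and 680.0, 622 and 634 in MIA PaCa-2, a log2 difference of 8.91 (SE 0.11). Then came RGS5 (a brake on G protein signals, 8.71), CLDN11 (a claudin of myelin and testis, 8.6), DOCK11 (7.36), CUBN (the endocytic receptor cubilin, 7.27), COL6A3 (7.19), the thrombin receptor F2R (6.99) and DNER (6.79). PDE10A, VIM, HOXB8, COL3A1, PALD1 and FAM171A1 closed this end with differences from 6.77 for PDE10A to 6.26 for FAM171A1.

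Among genes well expressed in both lines, the smallest p-values belonged to FSCN1, PVRL1, ITGB4, ITGA3, TXNRD1, SGK1, PLK2, ITGA6, UAP1 and SRGN. The actin bundler fascin, FSCN1, was at 1364, 1438 and 1461 in BxPC-3 and 30.3, 28.5 and 27.5 in MIA PaCa-2, a log2 difference of -5.58 (SE 0.04). The stress-induced kinase PLK2 was at 75.3, 74.3 and 71 in BxPC-3 and 949, 954 and 967 in MIA PaCa-2, higher in MIA PaCa-2 by 3.68 (SE 0.04). The serum- and glucocorticoid-regulated kinase SGK1 (27 against 663, 4.57), the UDP-sugar enzyme UAP1 (40.9 against 680.3, 4.02) and the proteoglycan serglycin, SRGN (24.3 against 451, 4.16), are given as BxPC-3 against MIA PaCa-2 means with their log2 differences.

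Cell junction genes were higher in BxPC-3 nearly throughout. Of 40 listed genes of epithelial junctions and adhesion, 34 were analysed and tested, 31 were called higher in BxPC-3 and 1 lower there, and 27 differed by at least 2-fold, all toward BxPC-3. The median log2 difference was -2.90, against 0.16 over all genes tested. It was -2.12 over the 28 members that reached a level of 1 in at least 1 library of each line. The other 6 were under 1 in every MIA PaCa-2 library. These 2 cases are called passing in both lines and passing through 1 line alone, here and below. A gene that passed in both lines can still lie near 1 in the lower line, and owe its place among the tested genes to the higher one. E-cadherin, CDH1, the transmembrane protein of adherens junctions, was at 379.6, 360.1 and 347 in BxPC-3 and 0.246, 0.262 and 0.143 in MIA PaCa-2. All 3 MIA PaCa-2 libraries held between 2 and 5 reads of it. The ratio was 1637-fold (95% counting interval 914 to 3279) and the log2 difference -8.22 (SE 0.08, limma, adjusted p = 1.0e-25). P-cadherin, CDH3, was at 208, 219 and 224 in BxPC-3 and 0.443, 0.786 and 0.645 in MIA PaCa-2, again with no overlap, a difference of -7.07 (SE 0.09). The desmosomal plaque protein periplakin, PPL, was at 686, 700.0 and 703 in BxPC-3 and 3.34, 2.82 and 3.22 in MIA PaCa-2 (-7.40, SE 0.06).

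Parts of the junction differed by unequal amounts. The desmosomal cadherins DSG3 (57.4 against 0.294, BxPC-3 first), DSC3 (102 against 0.146) and DSG2 (433 against 27.8) and the plaque proteins JUP (620.2 against 17.5) and DSP (911 against 81.6) had log2 differences of -5.50, -6.49, -3.91, -5.07 and -3.46. Desmoplakin, DSP, which ties desmosomes to keratin filaments, was still at 79.1, 81.3 and 84.5 in MIA PaCa-2. The catenins CTNND1 and CTNNB1, which bind cadherins and which other cell types also use, differed far less, by -1.72 and -0.47. The CTNNB1 difference was not called with ERCC scaling. Of the tight junction genes, CLDN7 (59.8 against 0.208, -5.66) and LSR (285 against 7.21, -5.12) were far below their BxPC-3 level in MIA PaCa-2, while claudin 4 (CLDN4, 107 against 86) was close to it. Occludin, OCLN, was the one listed junction gene called higher in MIA PaCa-2, at 4.05 against 8.16 (0.86).

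The regulators of the epithelial state went the same way. Of 30 listed, 15 were analysed and 14 tested, 4 of them through BxPC-3 alone; 13 were called higher in BxPC-3 and 10 of these by at least 4-fold, with a median of -4.14, or -3.90 over the 10 that passed in both lines. The zinc finger factor KLF5 was at 335, 319.7 and 313 in BxPC-3 and 2.8, 2.03 and 3.37 in MIA PaCa-2 (-6.45, SE 0.09). The membrane protease matriptase, ST14, was at 124, 129.7 and 133 in BxPC-3 and 0.295, 0.328 and 0.43 in MIA PaCa-2 (-6.59, SE 0.09), and its relatives PRSS22 (36.1 against 0.149, -5.02) and PRSS8 (23.8 against 0.255, -4.31) were low in MIA PaCa-2 in the same manner. The splicing regulator ESRP2 (66.5 against 2.54, -4.25) and the ETS factor ELF3 (35 against 1.62, -3.78) also stood above their MIA PaCa-2 level. TP63 (188 against 122.8, -0.61) and KLF4 (43.9 against 36.3) differed less, and GRHL1 was at 2.25 against 2.33, not called.

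The promoters of these genes were searched for an E-box sequence. Whether repressors of the ZEB or SNAI families act on them in either line was not tested. The motif searched was CACCTG or its reverse complement CAGGTG, in the 250 bases before the start site, so that both strands were covered and a site counted once. It was present in 4781 of 27305 RefSeq promoters of the same length (17.5%) and in 1480 of the 9329 tested genes that had a promoter in the table (15.9%). Of the 58 tested members of the junction, regulator and laminin lists, 32 had a promoter, and 12 of these (37.5%) held the motif. Of the 38 members at least 4-fold higher in BxPC-3, 18 had one and 8 (44.4%) held it. CDH1 was among those without a promoter. Over all genes at least 4-fold higher in BxPC-3 the share was 139 of 570 (24.4%), and over those at least 4-fold higher in MIA PaCa-2 it was 87 of 483 (18%). The lists were chosen with earlier results of these data known, and most of their members at 4-fold had no promoter to search. A match describes letters in a window, not a bound site. The promoters printed were picked from those that held the motif. The 4 promoters printed, chosen after the matches were seen, are those of DSP, DSG2, ITGA6 and LAMA3, all on the plus strand of GRCh38.p14 from RefSeq, at chr6:7541421-7541670, chr18:31497927-31498176, chr2:172427086-172427335 and chr18:23872770-23873019, with the motif in capitals and the last base next to the start site.
DSP: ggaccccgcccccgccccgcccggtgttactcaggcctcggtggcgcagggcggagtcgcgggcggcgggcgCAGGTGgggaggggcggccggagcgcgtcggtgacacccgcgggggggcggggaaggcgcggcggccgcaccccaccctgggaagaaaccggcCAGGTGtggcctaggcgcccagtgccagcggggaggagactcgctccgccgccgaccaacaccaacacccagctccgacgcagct
DSG2: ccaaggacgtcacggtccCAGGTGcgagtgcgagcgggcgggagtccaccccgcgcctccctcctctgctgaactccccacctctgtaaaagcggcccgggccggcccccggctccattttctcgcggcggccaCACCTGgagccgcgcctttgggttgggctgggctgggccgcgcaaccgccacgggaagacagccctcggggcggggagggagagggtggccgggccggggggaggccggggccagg
ITGA6: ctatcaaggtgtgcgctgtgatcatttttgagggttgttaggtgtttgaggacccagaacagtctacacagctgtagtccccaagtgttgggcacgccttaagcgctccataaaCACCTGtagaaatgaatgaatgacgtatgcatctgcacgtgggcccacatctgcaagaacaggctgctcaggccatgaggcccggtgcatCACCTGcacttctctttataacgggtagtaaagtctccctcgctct
LAMA3: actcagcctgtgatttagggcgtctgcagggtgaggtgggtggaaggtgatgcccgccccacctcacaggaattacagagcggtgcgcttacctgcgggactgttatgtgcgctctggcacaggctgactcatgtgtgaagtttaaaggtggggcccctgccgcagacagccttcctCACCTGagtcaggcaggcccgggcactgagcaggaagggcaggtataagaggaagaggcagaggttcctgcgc

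Keratins, the intermediate filaments of epithelia, did not move as a block. Of 11 tested, 2 through BxPC-3 alone, 7 were called higher in BxPC-3 and 3 lower there, with a median of -0.92, or -0.36 over the 9 that passed in both lines. KRT7 was at 2296, 2441 and 2468 in BxPC-3 and 0.934, 1.11 and 1.29 in MIA PaCa-2, a ratio of 2197-fold (95% counting interval 1683 to 2924) and a log2 difference of -10.15 (SE 0.06). KRT19 was at 1652, 1854 and 1854 in BxPC-3 and 79.7, 74.2 and 67.3 in MIA PaCa-2 (-4.58, SE 0.05); here MIA PaCa-2 still held a clear level, without overlap. KRT13, a keratin of stratified epithelium, was at 391 against 6.6 (-5.69). The simple-epithelial pair went the other way: KRT8 was at 801, 867 and 895 in BxPC-3 and 1790.3, 1703 and 1699 in MIA PaCa-2 (1.02, SE 0.04) and its partner KRT18 at 205 against 316 (0.62). KRT80 was higher in MIA PaCa-2 too, at 18.7 against 134 (2.78). Keratin genes have close relatives and processed copies, so single values depend on how the authors' counting treated shared reads.

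Laminin-332 and its receptors formed one of the most uniform groups. All 10 listed genes were analysed and tested, and none passed the filter through BxPC-3 alone; 9 were called higher in BxPC-3, 7 by at least 4-fold, and the median was -4.44. Of the chains of laminin-332, LAMA3 was at 431, 419 and 414 in BxPC-3 and 2.11, 3.34 and 2.08 in MIA PaCa-2 (-6.93, SE 0.09) and LAMB3 at 267, 295 and 297 in BxPC-3 and 4.72, 4.52 and 5.09 in MIA PaCa-2 (-5.63, SE 0.07). No MIA PaCa-2 library came within reach of a BxPC-3 library for either chain. Their receptor, integrin alpha-6 beta-4, followed: ITGB4 was at 1048, 1093 and 1128 in BxPC-3 and 42.8, 41.1 and 39.3 in MIA PaCa-2 (-4.70, SE 0.04) and ITGA6 at 613 against 26.9 (-4.46). The hemidesmosome collagen COL17A1 (1574 against 292, -2.42) and the linker plectin, PLEC (4679 against 1272, -1.88), were higher in BxPC-3 by less. Dystonin, DST, whose products include a hemidesmosomal and other forms, was higher in MIA PaCa-2, at 389 against 1289 (1.73).

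The wider integrin family split by subunit. Of 18 tested, 10 were called higher in BxPC-3 (8 by at least 2-fold) and 3 lower there. The median was -0.71, the same over the 14 that passed in both lines. The collagen receptor chain ITGA2 was at 266, 236 and 228 in BxPC-3 and 0.492, 1.05 and 0.931 in MIA PaCa-2 (-7.08, SE 0.10), and the epithelial chain ITGB6 at 41.5 against 0.24 (-5.10). ITGA3, a laminin receptor chain, was at 1271 against 58.4 (-4.42). The common partner chain ITGB1 was at 745 against 982, little different, and ITGAV (99.5 against 107) was not called.

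Mesenchymal genes were higher in MIA PaCa-2 in part only. Of 41 listed structural and matrix genes, 27 were analysed and 24 tested, 4 of them through MIA PaCa-2 alone; 14 were called higher in MIA PaCa-2 and 7 in BxPC-3, and at 4-fold or more 8 against 3. The median was 0.83, but 0.26 over the 20 that passed in both lines, against 0.16 over all genes tested. Vimentin, VIM, the intermediate filament of mesenchymal cells, was at 14.3, 14.7 and 15.8 in BxPC-3 and 1778, 1646 and 1731 in MIA PaCa-2. The ratio was 116-fold (95% counting interval 107 to 125), the log2 difference 6.75 (SE 0.05, limma, adjusted p = 4.9e-28), and every MIA PaCa-2 library stood far above the BxPC-3 range. COL3A1 (0.49 against 146, 6.63), COL6A3 (0.50 against 218, 7.19) and COL1A2 (0.377 against 61.1, 5.51) were under a level of 1 in BxPC-3, and COL6A1 (8.42 against 202, 4.43) was low there but well detected. The calcium-binding protein S100A4 (6.11 against 406, 5.84) and the collagen cross-linker LOXL2 (11.4 against 548, 5.47) went with them.

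Other genes that are commonly counted as mesenchymal went against the list. The membrane-bound collagenase MMP14 was at 558, 589.5 and 595 in BxPC-3 and 3.05, 3.93 and 3.08 in MIA PaCa-2, higher in BxPC-3 by a log2 difference of -7.07 (SE 0.07). Fibronectin, FN1, was at 33.5, 29.9 and 32.8 in BxPC-3 and 3.54, 4.85 and 4.3 in MIA PaCa-2 (-2.67, SE 0.10), and the collagen I chain COL1A1 at 10.9, 12.2 and 11.6 in BxPC-3 and 1.03, 1.31 and 0.931 in MIA PaCa-2 (-2.59, SE 0.13), so that COL1A1 and COL1A2 differed in opposite directions with no overlap in either. Of the transcription factors of this programme, 7 of 15 were analysed and 6 tested. Through BxPC-3 alone 1 had passed, and SNAI1 through MIA PaCa-2 alone, so that the direction of SNAI1 was set by the filter. In MIA PaCa-2 3 were called higher and in BxPC-3 2. ZEB1 was at 0.864, 1.26 and 1.19 in BxPC-3 and 43.3, 47.6 and 49.9 in MIA PaCa-2 (4.51, SE 0.11) and SNAI1 at 0.634, 0.296 and 0.63 in BxPC-3 and 12, 9.37 and 9.6 in MIA PaCa-2 (2.90, SE 0.14). FOXC1 was higher in BxPC-3 (67.1 against 25.7, -1.35), and ZEB2 lay under a level of 1 in both lines.

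**Figure D2:**
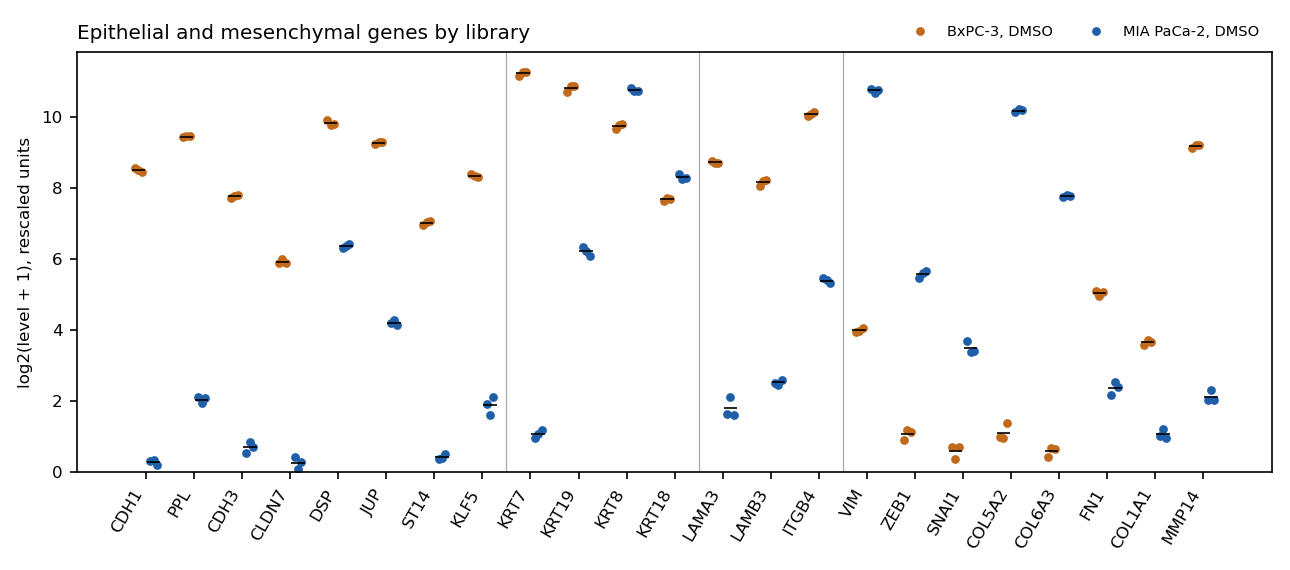
Vertical axis, log2(level + 1) in rescaled units for each library with DMSO; points are the 3 libraries of BxPC-3 (orange) and of MIA PaCa-2 (blue), black marks their means, and grey lines separate junction and regulator genes, keratins, laminin-332 with integrin beta-4, and mesenchymal genes. The libraries of the lines do not overlap for any gene shown; KRT8 and KRT18 stand higher in MIA PaCa-2 among the keratins, and FN1, COL1A1 and MMP14 higher in BxPC-3 among the mesenchymal genes.

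Few of the subtype markers could be compared. Of 25 classical genes 6 were analysed and 3 tested, each of which passed the filter through BxPC-3 alone and so could only come out higher there. Among them were the surface glycoproteins CEACAM6 at 155, 155 and 157 in BxPC-3 and 0.0984, 0.131 and 0.358 in MIA PaCa-2 (-7.04, SE 0.10) and CEACAM5 (73.5 against 0.376, -5.76). Of 25 basal-like genes 8 were analysed and tested, 1 of them through BxPC-3 alone, and 6 were called higher in BxPC-3, with a median of -3.47, or -1.88 over the 7 that passed in both lines. TNS4 was at 606, 604 and 578 in BxPC-3 and 1.33, 1.38 and 1.07 in MIA PaCa-2 (-8.05, SE 0.07) and S100A2 at 1639, 1922 and 1965 in BxPC-3 and 10.0, 8.91 and 8.31 in MIA PaCa-2 (-7.51, SE 0.06). The mucin MUC4 (58.2 against 1.64, -4.49) was higher in BxPC-3, and the gastric mucin MUC6 (6.05 against 16.4, 1.3) in MIA PaCa-2.

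The transcription factors of the pancreatic and foregut lineage were divided. Of 34 listed, 18 were analysed and 15 tested, 2 of them through each line alone. In MIA PaCa-2 9 were called higher and in BxPC-3 6, against 48.4% and 33.9% of all genes tested. The median was 0.42, the same over the 11 that passed in both lines. GATA6, the factor that marks the classical type, was at 61, 62 and 61.2 in BxPC-3 and 0.197, 0.262 and 0.287 in MIA PaCa-2; each MIA PaCa-2 library held exactly 4 reads. The log2 difference was -5.64 (SE 0.11, limma, adjusted p = 3.6e-21). FOXA1, a pioneer factor of endoderm, was at 65.4, 63.2 and 61 in BxPC-3 and 1.38, 1.83 and 1.86 in MIA PaCa-2 (-4.58, SE 0.10), and MEIS1 at 13 against 0.367 (-3.35). On the other side, GATA4, the relative of GATA6, was at 5.59, 6.00 and 5.25 in BxPC-3 and 37.4, 33.3 and 34 in MIA PaCa-2 (2.44, SE 0.09). The duct and progenitor factor SOX9 was at 17.8, 13.1 and 15.8 in BxPC-3 and 125, 115 and 125 in MIA PaCa-2 (2.89, SE 0.08), higher in MIA PaCa-2 although that line was lower for keratins 7 and 19. ONECUT2 (0.913 against 48.9, 4.70) and the eye and endocrine factor PAX6 (1.4 against 17.7, 2.96) were also higher in MIA PaCa-2.

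Among neuroendocrine and neuronal genes the wider differences were toward MIA PaCa-2. Of 41 listed, 21 were analysed and 17 tested, 3 of them through each line alone. In MIA PaCa-2 11 were called higher, 8 by at least 4-fold, and in BxPC-3 6, none by 4-fold. Over all genes tested 48.4% and 33.9% were called, and 5.33% and 5.56% by at least 4-fold. The list median was 1.21, or 2.54 over the 11 that passed in both lines. The adhesion molecule L1CAM was at 0.864, 0.741 and 1.12 in BxPC-3 and 42.9, 43.7 and 44.1 in MIA PaCa-2 (4.55, SE 0.11), and the granin SCG2 at 1.27, 0.815 and 0.77 in BxPC-3 and 23.9, 26.5 and 24.9 in MIA PaCa-2 (3.75, SE 0.12). The vesicle protein synaptophysin, SYP (0.705 against 9.99, 2.69), neuronal tubulin TUBB3 (52.3 against 349, 2.71), TUBB2B (0.0906 against 11.2, 3.48) and neuronal enolase ENO2 (6.2 against 47.1, 2.74) were higher as well. CHGB (0.207 against 0.739) and NCAM1 (0.277 against 0.39) stayed under a level of 1 in both lines. NNAT was higher in BxPC-3, at 7.75 against 3.23 (-1.05).

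Among HOX genes, which record the position of a cell along the body axis, the B cluster stood out by its values. HOXB8 was at 0.115, 0.148 and 0.21 in BxPC-3 and 117, 117 and 120.0 in MIA PaCa-2, a ratio of 759-fold (95% counting interval 368 to 1888), and HOXB9 at 2.54, 1.85 and 1.54 in BxPC-3 and 134, 128 and 121 in MIA PaCa-2 (5.45, SE 0.10). HOXB2 (0.339 against 30.7, 4.57), HOXB5 (4.16 against 32.1, 2.69) and HOXB6 (8.79 against 59.3, 2.62) were higher in MIA PaCa-2 too, HOXB3 (7.49 against 15.6, 0.98) by less, and HOXB7 (23.1 against 13.9, -0.69) was higher in BxPC-3. HOXA3 was higher in BxPC-3 (69.9 against 20.9, -1.69). Over the 15 tested, 8 were called higher in MIA PaCa-2 and 7 in BxPC-3, against 48.4% and 33.9% of all genes tested. The median was 0.43, but -0.043 over the 12 that passed in both lines, since 2 had passed through MIA PaCa-2 alone and 1 through BxPC-3 alone.

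Because the lines differ in BRAF genotype, the pathway from receptors to ERK was followed step by step. BRAF mRNA was at 44.3, 42.2 and 44.2 in BxPC-3 and 61.9, 57.8 and 60.8 in MIA PaCa-2 (0.46, SE 0.06), a difference of less than 2-fold, without overlap between the lines. EGFR, the receptor at the head of the pathway, was at 693, 603 and 634 in BxPC-3 and 190.1, 199 and 203 in MIA PaCa-2, higher in BxPC-3 (-1.70, SE 0.05), and its partner ERBB3 at 79.3, 81.2 and 87.7 in BxPC-3 and 4.67, 3.67 and 4.23 in MIA PaCa-2 (-4.02, SE 0.09). Of the ligands, HBEGF was higher in BxPC-3 (110.4 against 6.43, -3.91), while epiregulin, EREG, was at 103, 94.3 and 93.1 in BxPC-3 and 427, 470.2 and 485 in MIA PaCa-2 (2.24, SE 0.05), and EPGN (0.438 against 6.96, 2.48) was higher in MIA PaCa-2. ERRFI1, an inhibitor of EGFR family kinases, was at 53.5, 49.7 and 46.2 in BxPC-3 and 913, 934 and 958 in MIA PaCa-2 (4.21, SE 0.05).

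Of the 28 tested genes of the RAS to ERK core, 18 were called higher in MIA PaCa-2 and 7 in BxPC-3. Only 3 and 2 differed by at least 2-fold, and the median was 0.52. Over all genes tested 48.4% and 33.9% were called, and 18.3% and 12.7% by at least 2-fold. The kinases MAP2K1 and MAP2K2 went opposite ways. MAP2K1 was at 104, 99.6 and 101 in BxPC-3 and 38.2, 37.6 and 38.8 in MIA PaCa-2 (-1.39, SE 0.05) and MAP2K2 at 147, 149.7 and 152 in BxPC-3 and 509.8, 458 and 459.7 in MIA PaCa-2 (1.66, SE 0.04), without overlap in either. The scaffold CNKSR1 was higher in BxPC-3 (50.5 against 1.00, -4.71) and the small GTPase MRAS in MIA PaCa-2 (0.808 against 9.43, 2.53).

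Genes that ERK signalling induces, many of which feed back on it, split by family. Of 24 tested, 14 were called higher in MIA PaCa-2 and 9 in BxPC-3, against 48.4% and 33.9% of all genes tested. By at least 4-fold 5 and 3 were called, against 5.33% and 5.56%, and the median was 0.55. The MAP kinase phosphatases were higher in BxPC-3: DUSP4 was at 308, 304 and 316 in BxPC-3 and 1.18, 0.721 and 1.07 in MIA PaCa-2 (-7.29, SE 0.08), DUSP6 at 151, 142 and 152 in BxPC-3 and 8.41, 9.7 and 10.2 in MIA PaCa-2 (-3.84, SE 0.07), and DUSP5 (43.3 against 12.3, -1.74) and DUSP7 (256 against 112, -1.18) by less. The Sprouty inhibitors were higher in MIA PaCa-2: SPRY4 was at 15.8, 16 and 19.3 in BxPC-3 and 657, 645 and 663 in MIA PaCa-2 (5.19, SE 0.06), SPRY2 at 30.9 against 196 (2.62) and SPRY1 at 8.85 against 27.8 (1.55). The ETS factor ETV5 was at 16.7, 17.1 and 15.4 in BxPC-3 and 135, 136 and 139 in MIA PaCa-2 (2.99, SE 0.06), higher in MIA PaCa-2, as were ETV1 (5.86 against 20.1, 1.62) and ETV4 (24.3 against 52.9, 1.09). EGR1 (168 against 216), FOSL1 (169 against 204) and PHLDA1 (281 against 288) lay close together. MYC was at 140.2, 138 and 139 in BxPC-3 and 340.4, 334 and 324 in MIA PaCa-2 (1.25, SE 0.04).

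Other receptor tyrosine kinases went both ways. Of 23 tested, 12 were called higher in MIA PaCa-2 and 11 in BxPC-3, against 48.4% and 33.9% of all genes tested. The median was 0.75, but -0.30 over the 18 that passed in both lines, since 4 had passed through MIA PaCa-2 alone and 1 through BxPC-3 alone. The collagen receptors were the clearest case: DDR1 was at 289.6, 297 and 314 in BxPC-3 and 34.2, 28.8 and 34.9 in MIA PaCa-2 (-3.17, SE 0.06) and DDR2 at 0.691, 0.741 and 0.84 in BxPC-3 and 129, 132 and 132 in MIA PaCa-2 (6.23, SE 0.09), so that each line was the higher one for 1 of the pair. The hepatocyte growth factor receptor MET was at 414, 359 and 357 in BxPC-3 and 18.8, 20.6 and 23.8 in MIA PaCa-2 (-4.10, SE 0.07). FGFR2 (36.2 against 8.23, -2.01) was higher in BxPC-3, and FGFR4 (1.26 against 20.7, 3.28) and FGFR1 (18.1 against 64.3, 1.78) were higher in MIA PaCa-2, with the lymphangiogenic factor VEGFC (0.682 against 58.1, 5.14).

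In the TGF-beta pathway the receptor and the SMAD were low in different lines. SMAD4, the common partner of receptor-activated SMADs, was at 0.173, 0.0741 and 0.28 in BxPC-3 and 75.5, 73.5 and 75.3 in MIA PaCa-2; the BxPC-3 libraries held 1 to 4 reads each, the ratio was 422-fold (95% counting interval 214 to 978) and the log2 difference 6.01 (SE 0.11, limma, adjusted p = 1.7e-21). TGFBR2, the receptor that binds the ligand, was at 120.3, 113 and 116 in BxPC-3 and 0.443, 0.328 and 0.0716 in MIA PaCa-2, with 1 to 9 reads per MIA PaCa-2 library, a ratio of 386-fold (95% counting interval 234 to 690.0) and a difference of -6.53 (SE 0.11). TGFBR1 (42.3 against 42.9) was not called. Both lines thus had 1 step of the pathway near 0 at the level of mRNA, a different one in each.

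Known targets went both ways. TGFBI, a matrix protein induced by TGF-beta, was at 541, 555 and 549.9 in BxPC-3 and 16.9, 16.1 and 15.4 in MIA PaCa-2 (-5.01, SE 0.05), and PMEPA1 (292 against 49.7, -2.53), SMAD7 (8.12 against 2.06, -1.58) and the ligands TGFB1 (269.8 against 61.1, -2.12) and TGFB2 (12.2 against 0.263, -3.38) were also higher in BxPC-3, which has SMAD4 near 0. ID3, a target of BMP signalling, was at 5.59, 7.19 and 5.18 in BxPC-3 and 366, 347 and 351 in MIA PaCa-2 (5.68, SE 0.08), and SMURF2 (36 against 316, 3.10), SMAD9 (0.465 against 14.8, 3.45) and the BMP antagonist NOG (1.05 against 36.9, 4.22) were higher in MIA PaCa-2. Over the 44 members tested, 22 were called higher in BxPC-3 and 18 lower there, with a median of -0.21 that was 0.13 with ERCC scaling and -0.084 over the 39 that passed in both lines.

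Around SMAD4 on chromosome 18 most of the neighbours tested were lower in BxPC-3, though not all. Of 31 genes of the 18q21 list, SMAD4 itself among them, 21 were analysed and 19 tested. SMAD4 was 1 of the 2 tested through MIA PaCa-2 alone. With SMAD4 counted, 13 were called higher in MIA PaCa-2 and 5 in BxPC-3, against 48.4% and 33.9% of all genes tested. The median was 0.69, or 0.64 over the 17 that passed in both lines, against 0.16 over all genes tested and 0.66 over chromosome 18. The other 10 genes of the list, near neighbours of SMAD4 among them, were not analysed here. CCDC68 was at 2.48, 1.93 and 2.24 in BxPC-3 and 65.2, 67.2 and 67.7 in MIA PaCa-2 (4.40, SE 0.09) and RAB27B, a GTPase of secretory vesicles, at 14.8 against 122 (2.97), while the methyl-CpG binding protein MBD2 (102 against 18.4, -2.41) and MYO5B (26.7 against 3.11, -2.76) were higher in BxPC-3. On 9p21, CDKN2A and MTAP were not analysed here. Of 25 listed genes of that neighbourhood 11 were analysed and tested. In each direction 5 were called, against 48.4% of all genes tested toward MIA PaCa-2 and 33.9% toward BxPC-3. FOCAD passed the filter through BxPC-3 alone and so could only come out higher there. FOCAD was at 30.2, 28.5 and 31.9 in BxPC-3 and 0.246, 0.524 and 0.287 in MIA PaCa-2, with 4 to 8 reads per MIA PaCa-2 library and a log2 difference of -4.53 (SE 0.12). The others reached at most -1.70 (C9orf72) and 1.61 (PLIN2).

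**Figure D3:**
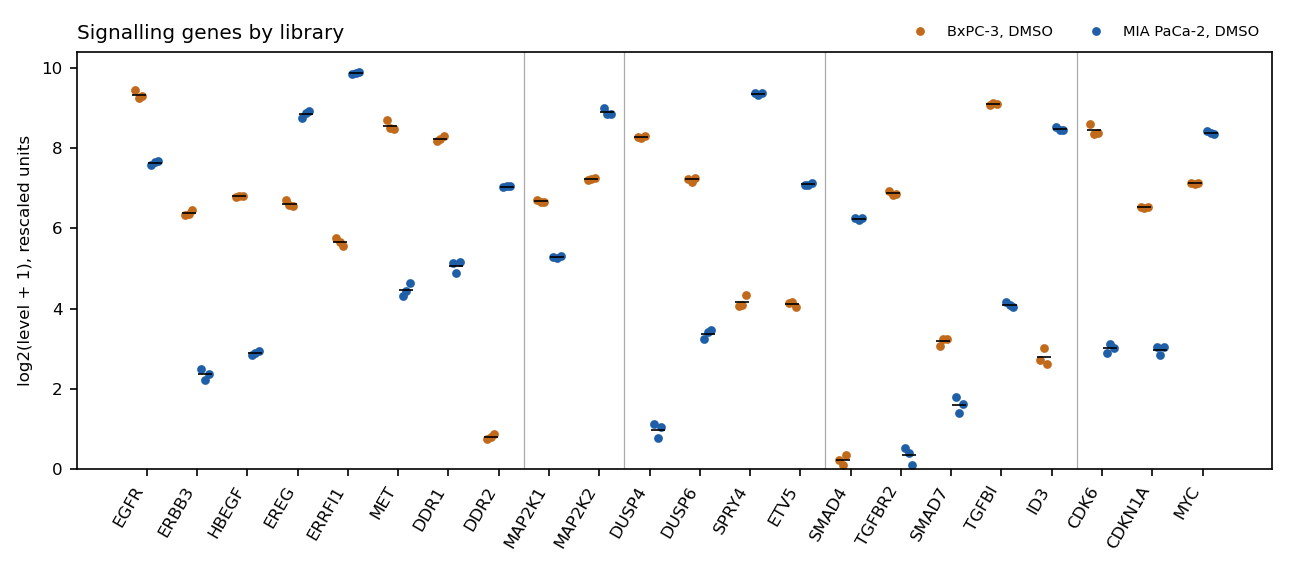
Vertical axis, log2(level + 1) in rescaled units for each library with DMSO; points are the 3 libraries of BxPC-3 (orange) and of MIA PaCa-2 (blue), black marks their means, and grey lines separate receptors and ligands, the RAS to ERK core, ERK-induced genes, the TGF-beta pathway, and cell cycle genes. The libraries of the lines do not overlap for any gene shown, and SMAD4 and TGFBR2 are near 0 in opposite lines.

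Notch and Hedgehog genes gave single large differences rather than a common direction, while more Wnt genes were called higher in BxPC-3 than in MIA PaCa-2. Of 24 tested Notch and Hedgehog genes 12 were called in each direction, and the median of 0.01 was -0.17 with TMM factors and -0.14 over the 19 that passed in both lines. The Notch ligand JAG1 was at 609, 572 and 562 in BxPC-3 and 3.2, 2.1 and 2.22 in MIA PaCa-2 (-7.39, SE 0.09), and the targets HES4 (154 against 6.51, -4.37) and HES1 (90.4 against 22, -1.99) were higher in BxPC-3, while the receptor NOTCH3 was at 6.17, 6.08 and 6.86 in BxPC-3 and 86.1, 79.6 and 78.8 in MIA PaCa-2 (3.49, SE 0.08). SMO, the transducer of Hedgehog signals, was at 0.23, 0.0741 and 0.42 in BxPC-3 and 42.1, 43.1 and 43.2 in MIA PaCa-2 (5.15, SE 0.12), and the ligand SHH at 4.46 against 27.8 (2.39), both higher in MIA PaCa-2, while the effector GLI3 (28.4 against 0.732, -4.08) was higher in BxPC-3. Of 31 tested Wnt genes 17 were called higher in BxPC-3 and 9 lower there, against 33.9% and 48.4% of all genes tested. Their median was -0.69, -0.32 with ERCC scaling and -0.47 over the 27 that passed in both lines. LGR4 (88.2 against 6.62, -3.55), the R-spondin receptor, the Wnt acyltransferase PORCN (265 against 28.4, -3.18) and WNT7B (133 against 18.9, -2.76) were higher in BxPC-3, and the receptors FZD2 (5.07 against 29.3, 2.33) and FZD7 (7.21 against 31, 1.97) in MIA PaCa-2.

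Interferon-induced genes were higher in BxPC-3 although the labels name no interferon treatment. All 41 analysed of 48 listed were tested, 7 through BxPC-3 alone; 33 were called higher in BxPC-3, 22 by at least 4-fold, and 4 in MIA PaCa-2, none by 4-fold, with a median of -2.20, or -1.75 over the 34 that passed in both lines. IFI27 was at 312, 330.3 and 341 in BxPC-3 and 0.492, 0.197 and 0.215 in MIA PaCa-2, a ratio of 1012-fold (95% counting interval 623 to 1770.3) (-7.99, SE 0.09). The antiviral enzyme OAS2 was at 137, 133 and 134 in BxPC-3 and 0.639, 1.11 and 0.716 in MIA PaCa-2 (-6.22, SE 0.10), and IFI44 at 65.8, 67.6 and 66.9 in BxPC-3 and 0.295, 0.393 and 0.143 in MIA PaCa-2 (-5.73, SE 0.11). In each of these the MIA PaCa-2 libraries lay near 0. MX1 (29.7 against 1.62, -3.55), ISG15 (72.7 against 8.32, -2.99) and the sensor adaptor STING, named TMEM173 in the table (40.2 against 0.895, -4.43), followed. Of the transducers, STAT2 (88.1 against 25.5, -1.75) and IRF9 (6.95 against 2.77, -1.08) were higher in BxPC-3 by less than the targets named. IFITM2 was the listed gene furthest toward MIA PaCa-2 (14.1 against 39.9, 1.43).

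Antigen presentation, which interferons also induce, split within its core. Of 21 tested genes 12 were called higher in BxPC-3 and 5 lower there, with a median of -0.48. The class I light chain B2M was at 955, 977 and 972 in BxPC-3 and 176, 174 and 182 in MIA PaCa-2 (-2.44, SE 0.04) and the peptide trimmer ERAP2 at 209.9, 207 and 202 in BxPC-3 and 16.2, 18.3 and 16.6 in MIA PaCa-2 (-3.52, SE 0.06). The class I heavy chain HLA_B was at 15, 20.5 and 16.2 in BxPC-3 and 81.5, 77.3 and 86.9 in MIA PaCa-2, higher in MIA PaCa-2 (2.19, SE 0.09), while HLA_A (147 against 156) was not called and HLA_C (153 against 71.2, -1.09) was higher in BxPC-3. HLA genes vary between people and share sequence, so that reads of 1 allele may be placed less well than those of another, and single HLA values are uncertain.

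Inflammatory mediators likewise went both ways. Of 22 tested, 12 were called higher in BxPC-3 and 8 lower there, against 33.9% and 48.4% of all genes tested. The median was -0.45, but -0.015 over the 17 that passed in both lines, since 4 had passed through BxPC-3 alone and 1 through MIA PaCa-2 alone. Lipocalin LCN2, an iron-trapping protein of inflamed epithelium, was at 250.3, 269 and 263 in BxPC-3 and 0.344, 0.262 and 0.215 in MIA PaCa-2 (-7.68, SE 0.08), complement C3 at 133, 142 and 136 in BxPC-3 and 0.393, 1.11 and 1.07 in MIA PaCa-2 (-6.24, SE 0.12), and IL1A (62 against 1.69, -4.55) and IL1B (82.9 against 3.36, -4.28) were higher in BxPC-3. The neutrophil attractant interleukin-8, IL8, was at 9.28, 9.86 and 7.84 in BxPC-3 and 130.3, 144 and 145 in MIA PaCa-2 (3.82, SE 0.08), and CSF1 (11.5 against 109, 3.14) and CXCL5 (0.506 against 12.7, 3.18) were higher in MIA PaCa-2. In the NF-kB list the inhibitor TNFAIP3 (98 against 11.6, -2.98) was higher in BxPC-3, and BIRC3 (8.72 against 80.9, 3.08), MAP3K14 (20.2 against 112, 2.42) and the receptor CD40 (0.228 against 9.07, 3.04) in MIA PaCa-2. Of its 27 members 12 were called in each direction, and 1, CD40, had passed through MIA PaCa-2 alone.

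Mitotic genes were higher in MIA PaCa-2 with few exceptions, though by modest amounts. All 30 listed were tested, 29 were called higher in MIA PaCa-2, KIF23 (at 158 against 167) was not called, and 11 differed by at least 2-fold. The median was 0.80, and 0.62 with TMM factors, where 28 of the 30 stayed above 0. ASPM, a spindle pole protein, was at 101, 85.2 and 87.1 in BxPC-3 and 379.6, 442 and 466 in MIA PaCa-2 (2.22, SE 0.07), the kinetochore protein NUF2 at 22.6 against 114 (2.29) and CENPF at 193 against 754 (1.96), while PLK1 (191 against 206) and CDK1 (103 against 127) lay close together. Of 36 replication genes 19 were called higher in MIA PaCa-2 and 14 in BxPC-3, against 48.4% and 33.9% of all genes tested. Their median of 0.16 was -0.02 with TMM factors. RRM2 (137 against 533, 1.96) was higher in MIA PaCa-2, and POLA2 (99 against 44.2, -1.14) and LIG1 (146 against 67.3, -1.11) in BxPC-3.

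Regulators of the G1 phase held 2 of the wider gaps. CDK6, a partner of D-type cyclins, was at 387, 325 and 329.9 in BxPC-3 and 6.49, 7.73 and 7.09 in MIA PaCa-2 (-5.42, SE 0.07), whereas its relative CDK4 was at 117 against 72.6 (-0.68). The CDK inhibitor p21, CDKN1A, was at 91.6, 89.5 and 91.9 in BxPC-3 and 7.28, 6.16 and 7.24 in MIA PaCa-2 (-3.55, SE 0.08). Genes that respond to DNA damage went both ways: PHLDA3 (66.7 against 0.947, -5.14), GDF15 (13.3 against 1.83, -2.34) and DDB2 (53 against 11.7, -2.09) were higher in BxPC-3, and PLK2 and POLH (13.2 against 44.5, 1.68) in MIA PaCa-2, while MDM2 (35.3 against 32.2) was not called.

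The kinases that THZ1 binds were present in both lines before treatment. CDK7 was at 17.5, 17.1 and 16.3 in BxPC-3 and 52.9, 57.1 and 56.6 in MIA PaCa-2 (1.65, SE 0.07), and its cyclin CCNH at 25, 27.1 and 23.7 in BxPC-3 and 61.2, 55.6 and 64.6 in MIA PaCa-2 (1.23, SE 0.07), both higher in MIA PaCa-2 without overlap, while the assembly factor MNAT1 was at 18.6 against 21.2. CDK12 was at 117, 102 and 105 in BxPC-3 and 236, 244 and 258 in MIA PaCa-2 (1.18, SE 0.05). CDK13 was at 88.9, 80.4 and 81.9 in BxPC-3 and 80.0, 83.4 and 82 in MIA PaCa-2 (-0.03, SE 0.05) and was not called (limma, adjusted p = 0.56); with ERCC scaling it was called higher in MIA PaCa-2, at 0.34 (limma, adjusted p = 0.0036), and with TMM factors lower there, at -0.21 (limma, adjusted p = 0.0008).

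Genes of the oxidant defence that NRF2 controls went both ways, with the widest differences toward MIA PaCa-2. Of 27 tested, 15 were called higher in MIA PaCa-2 and 8 in BxPC-3, against 48.4% and 33.9% of all genes tested. At 2-fold or more the counts were 10 against 2, and at 4-fold or more 6 against 0. The median was 0.38, and 0.20 with TMM factors, where 14 of the 27 lay above 0. The lowest log2 difference was -1.75. The genes named next are from the MIA PaCa-2 side. Thioredoxin reductase, TXNRD1, was at 90.0, 85.1 and 86.3 in BxPC-3 and 1362, 1404 and 1416 in MIA PaCa-2 (3.98, SE 0.04), the drug exporter ABCC2 at 1.9, 1.78 and 1.47 in BxPC-3 and 153, 171 and 170.3 in MIA PaCa-2 (5.93, SE 0.08) and heme oxygenase, HMOX1, at 1.3 against 17.9 (3.05). AKR1C1 (69.1 against 525, 2.91), GCLM (52.1 against 316, 2.58) and NQO1 (114 against 502, 2.13) were in the same position. The factor itself, NFE2L2, was at 87.5, 82.2 and 86.3 in BxPC-3 and 89.8, 78.6 and 88.4 in MIA PaCa-2 and was not called.

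Xenobiotic enzymes went both ways too, with the widest differences toward BxPC-3. Of 37 tested, 20 were called higher in BxPC-3, 9 by at least 4-fold, and 15 in MIA PaCa-2, 1 by 4-fold, with a median of -0.39, or -0.33 over the 32 that passed in both lines. The aldehyde dehydrogenase ALDH3A1 was at 235, 258 and 257 in BxPC-3 and 0.492, 0.393 and 0.502 in MIA PaCa-2 (-7.42, SE 0.08). The cytochromes CYP2S1 (290.4 against 0.416, -7.69), CYP1A1 (51.2 against 1.49, -4.40) and CYP1B1 (182 against 9.42, -4.13), known targets of the aryl hydrocarbon receptor, and the receptor AHR itself (119 against 15, -2.91) were higher in BxPC-3. Among genes that handle nucleoside drugs such as gemcitabine, cytidine deaminase, CDA, which inactivates it, was at 13.2, 16.2 and 18.5 in BxPC-3 and 0.541, 0.852 and 0.86 in MIA PaCa-2 (-3.27, SE 0.14). DPYD, which degrades fluorouracil, was at 41, 44.8 and 37.5 in BxPC-3 and 167, 166 and 178 in MIA PaCa-2 (2.03, SE 0.06), the activating kinase DCK (15.5 against 17.5) was not called, and the importer SLC29A1 was at 74.7 against 152 (1.02).

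In the hypoxia and glycolysis list EPAS1, the oxygen-regulated factor HIF-2 alpha, was at 201, 177 and 191 in BxPC-3 and 2.71, 2.29 and 1.79 in MIA PaCa-2 (-5.88, SE 0.09), whereas HIF1A was at 387 against 206 (-0.90). Its targets CA12 (23.5 against 1.42, -3.36), NDRG1 (93.1 against 16.8, -2.40) and the glucose importer SLC2A1 (322 against 86.8, -1.88) were higher in BxPC-3, and the oxygen sensor EGLN1 (28 against 139, 2.28) in MIA PaCa-2. Of 35 tested 17 were called in each direction, and the median of -0.10 was 0.27 with ERCC scaling and 0.013 over the 34 that passed in both lines. Housekeeping groups stayed closer together. Of 82 cytosolic ribosomal protein genes 6 differed by at least 2-fold (RPS7 at 231 against 858, 1.89, was the widest), with a median of 0.10 that was -0.08 with TMM factors. Of 79 nuclear genes for oxidative phosphorylation 8 did (NDUFB11 at 53.5 against 189.8, 1.81, was the widest), with a median of -0.16 that was 0.13 with ERCC scaling.

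**Figure D4:**
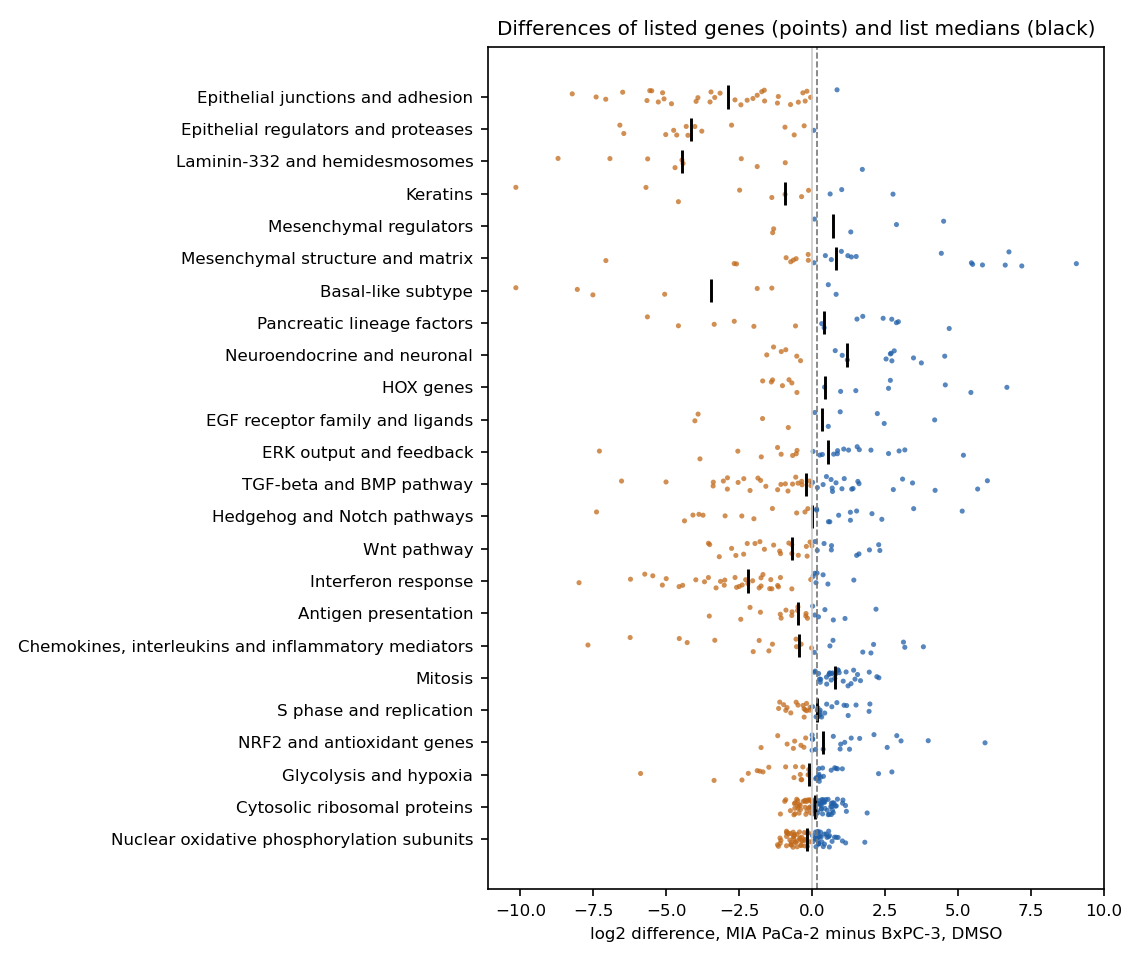
Horizontal axis, log2 difference of MIA PaCa-2 minus BxPC-3 with DMSO; each point is a tested gene of the list named at the left (orange below 0, blue above 0), black marks are list medians and the dashed line is the median of all genes tested, 0.16. Junction genes (-2.90), epithelial regulators (-4.14), laminin-332 (-4.44) and interferon genes (-2.20) lie toward BxPC-3, mitosis (0.80) toward MIA PaCa-2, and ribosomal proteins stay within a narrow band whose median of 0.10 turns to -0.08 with TMM factors.

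Differences were also read along the chromosomes, since DNA copy number differs between cancer lines. The 12896 tested genes with a place in the RefSeq gene order (GRCh38.p14, order only) gave 12344 windows of 25 neighbours. The window medians ran from -0.60 at the 5th percentile over 0.15 at the middle to 0.91 at the 95th. Whole chromosomes ranged from a median of -0.45 on chromosome 15 and -0.43 on chromosome 11 to 0.66 on chromosome 18 and 0.67 on chromosome 21. The window furthest toward MIA PaCa-2 lay on chromosome 2 between TRAPPC12 and PQLC3, with a median of 1.77. It holds RPS7, the ribosomal protein gene with the widest difference (222, 232 and 237 in BxPC-3 and 893, 836 and 844 in MIA PaCa-2), and RRM2. Windows on the X chromosome followed, from RRM2P3 to ZNF182 (1.65) and from SUV39H1 to GSPT2 (1.58), the first of which holds NDUFB11 (47.8, 56.9 and 55.8 in BxPC-3 and 201, 184 and 185 in MIA PaCa-2). On chromosome 1 the window from ATF6 to TIPRL (1.51) holds DDR2, RGS5, UAP1 and NUF2. Toward BxPC-3 the furthest window was on chromosome 11, from CTNND1 to TMEM216 (-1.27). Copy number was not measured in these libraries, and its part in these differences was not tested.

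**Figure D5:**
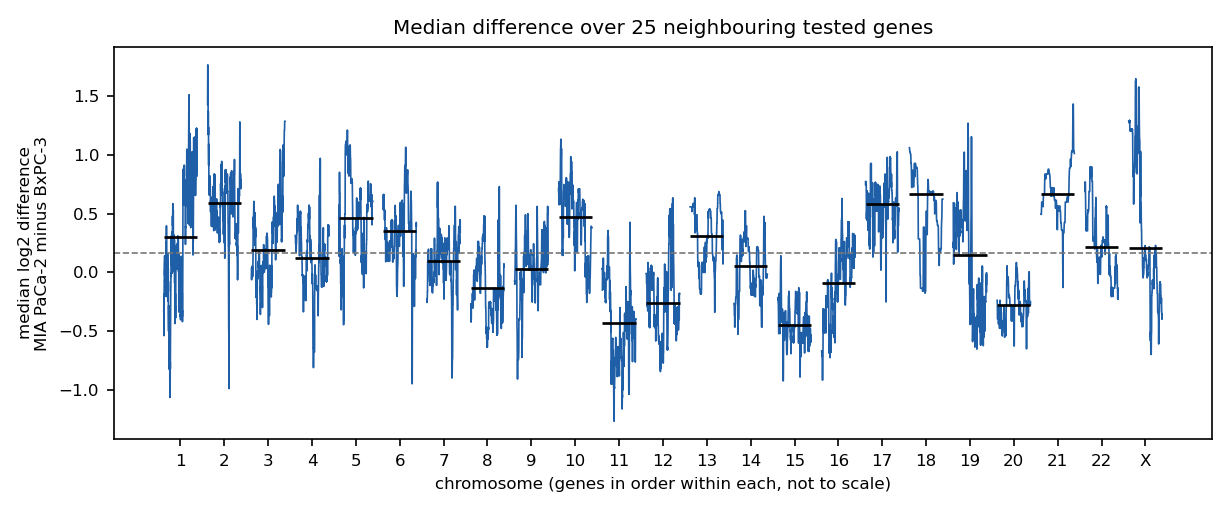
Vertical axis, median log2 difference (MIA PaCa-2 minus BxPC-3, DMSO) over 25 neighbouring tested genes; the horizontal axis takes the windows in gene order within each chromosome, not to scale, black marks are the medians of whole chromosomes and the dashed line is the median of all genes tested. Chromosomes 11 (-0.43) and 15 (-0.45) lie lowest, chromosomes 18 (0.66) and 21 (0.67) highest, and the peak of 1.77 is at the start of chromosome 2.

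The differences were set beside libraries that the comparison did not use. In the THZ1-treated libraries of the same lines, 4390 of the 4432 genes called at 2-fold had the same direction, 4302 were called again by limma and 19 were called in the opposite direction. At 4-fold the counts were 1551, 1548 and 2 of 1555. These libraries come from the same 2 lines and test no other lines. PANC-1, the third line, was given DMSO as well; its replicate 1 stood apart from its other replicates, so counts are given with and without it. By its mean, PANC-1 was nearer to MIA PaCa-2 for 447 and nearer to BxPC-3 for 314 of the 761 genes at least 4-fold higher in MIA PaCa-2, and 396 and 365 without that replicate. Of the 794 genes at least 4-fold higher in BxPC-3 it was nearer to MIA PaCa-2 for 434 and to BxPC-3 for 360, and 476 and 318 without it. For single genes PANC-1 took either side. In its 3 replicates CDH1 was at 5.95, 3.73 and 2.39, VIM at 1956, 1589.9 and 1459, ZEB1 at 26.3, 43.2 and 53.6, KRT7 at 8.83, 3.04 and 3.44, GATA6 at 3.84, 4.78 and 5.13, SMAD4 at 15.4, 29.6 and 29.1 and TGFBR2 at 31.1, 58.7 and 68.8. PANC-1 thus lay near MIA PaCa-2 for VIM, ZEB1 and KRT7, well above MIA PaCa-2 for TGFBR2, and between the 2 lines for SMAD4, in each replicate.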

How the data were processed

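The authors deposited 1 table of signal values per gene and library, made with STAR on hg19 per the submitters' processing notes; its counting program, annotation and filter are not stated in those notes or labels. Times a fixed integer for its library, each deposited signal is a whole read count (tolerance 0.001, 100% of values), with at least 1 read for every gene in every library. Per the labels, RNA was polyadenylated, libraries were stranded and replicates biological. They are cultures of 1 line each, so p-values measure only the spread between such cultures. The deposited log2 columns (mean THZ1 ratio and mean level) and the SD of those ratios were not used. Names follow the table, with low lines for hyphens; 22 names turned into dates were left unnamed.

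Values were multiplied by 21.5, filtered at 1 in at least 3 of the 6 libraries, and tested with limma 3.58.1 (R 4.3.3, trend) on log2(value + 1), with 4 residual degrees of freedom and Benjamini-Hochberg adjustment at 0.05. On simulated data limma recovered 100 of 100 genes changed by 2-fold and 7 of the unchanged genes were called. There 100 genes were changed by 2-fold and 100 by 4-fold among 14273, in both directions, with 1 spread for all genes. Most genes differ in the real data, so the simulation does not give their share of false calls. Counting intervals are exact, on summed recovered reads, and cover counting error only.

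Named genes were the 15 furthest at each end (mean of at least 20, 4-fold, no overlap), the 3 furthest at each end of each of 55 lists (mean of at least 5, 2-fold), the 10 smallest p among genes at 20 or more in both lines, and 16 drivers and kinases fixed by name; some of them are not reported here. The largest adjusted p of a named gene called higher or lower was 2.95e-06 (limma). Another 59 genes with a difference, and those given by level alone, were named after their values were seen. Members and lists were chosen with earlier results of these data known; lists are described by counts and medians, without a test. Alternatives were ERCC, equal-sum, equal-median, TMM and DESeq2 scaling, pseudocounts of 0.5 and 5, other filters, no trend, a replicate block, all libraries in the fit, edgeR 4.0.16 and DESeq2 1.42.0 on recovered read counts, and leaving out each library. The series' other libraries were used only where named.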

Additional observations from a re-analysis of the deposited data

How the results depend on the processing

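A total of 21 alternatives were run. Of 317 named genes, 316 kept their direction in each alternative that included them. Most were named for wide differences or after their values were seen, so few could change direction. The filter of 5 left out 1 named gene and the filter of 1 in every library 94. CDK13 (-0.03) turned to 0.34 with ERCC scaling and to 0.010 without BxPC-3 replicate 1, in a range from -0.061 to 0.010 when 1 library was left out, and was called at -0.21 with TMM factors and at -0.22 with DESeq2 factors, edgeR and DESeq2. Calls were lost for CTNNB1 with ERCC scaling (-0.09) and for TP63 in the fit on all libraries (-0.61). ERCC scaling gave 2880 genes higher in BxPC-3 and 4104 at least 2-fold higher in MIA PaCa-2. A pseudocount of 5 gave 1636 at least 2-fold higher in MIA PaCa-2, and 347 and 516 at least 4-fold higher in MIA PaCa-2 and BxPC-3. A filter of 1 in every library, chosen after seeing the data, gave 441 and 477, since it removes genes near 0 in 1 line. The fit on all libraries called 9522 genes, edgeR 11687 and DESeq2 11168. Leaving out 1 library gave 11399 to 11668 calls and an ERCC difference of -0.45 to -0.33. The replicate numbers did not pair the libraries: deviations of same-numbered libraries correlated at -0.20, -0.05 and -0.05 across genes, and with the replicate block 11558 genes were called. Levels under 1 rest on fewer than 21 reads per library and limit the size of the widest differences.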

Other observations

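Guidance receptors, which steer cell contacts and migration, went both ways within each family. Of 17 tested ephrins and Eph receptors, limma called 9 higher in BxPC-3 and 8 lower there (82.4% of all genes tested were called), and the median log2 difference of -0.31 was 0.02 with ERCC scaling. Over the 12 that passed in both lines it was -1.40, since 4 had passed through MIA PaCa-2 alone and 1 through BxPC-3 alone. The Eph receptor EPHB6 was at 195, 215 and 221 in BxPC-3 and 0.246, 0.459 and 0.358 in MIA PaCa-2 (-7.29, SE 0.09), and EPHA1 (63.6 against 1.3, BxPC-3 first, -4.81) and the ligand EFNB2 (54.5 against 2.37, -4.04) were higher in BxPC-3 as well. EPHA4 was at 15.8, 17.7 and 14.4 in BxPC-3 and 148, 151 and 159 in MIA PaCa-2, higher in MIA PaCa-2 (3.18, SE 0.07). Of 24 tested semaphorins, plexins and neuropilins, 12 were called higher in BxPC-3, each by at least 2-fold, and 10 in MIA PaCa-2. The semaphorin and VEGF co-receptors NRP1 at 116, 99.9 and 104 in BxPC-3 and 0.787, 1.25 and 0.502 in MIA PaCa-2 (-5.88, SE 0.12) and NRP2 (62.7 against 1.28, -4.81) were low in MIA PaCa-2, as was PLXNA2 (200.5 against 4.47, -5.22). SEMA6B was at 0.922, 1.19 and 0.98 in BxPC-3 and 95.9, 96.1 and 96.5 in MIA PaCa-2 (5.58, SE 0.09), and PLXND1 (24.5 against 238, 3.23) and SEMA4D (2.61 against 25.1, 2.86) were higher in MIA PaCa-2 too.

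Secreted proteases and their inhibitors, YAP targets and transporters each gave differences in both directions. Of 42 tested proteases and inhibitors, 21 were called higher in MIA PaCa-2 and 16 in BxPC-3, against 48.4% and 33.9% of all genes tested. Through each line alone 5 had passed, TIMP3 among those through BxPC-3. The median was 0.15, the same over the 32 that passed in both lines. The metalloproteinase inhibitor TIMP3 was at 200.3, 205 and 193 in BxPC-3 and 0.0984, 0.197 and 0.143 in MIA PaCa-2, with 2 to 3 reads per MIA PaCa-2 library and a ratio of 1412-fold (95% counting interval 685 to 3514), whereas TIMP2 was at 20.2, 17.3 and 18 in BxPC-3 and 477, 467 and 463 in MIA PaCa-2 (4.59, SE 0.05). The protease inhibitor SERPINE2 (75.2 against 0.829, -5.42) was higher in BxPC-3. Of 27 tested genes of the YAP list, 1 of them through BxPC-3 alone, 13 were called higher in MIA PaCa-2 and 11 in BxPC-3. The median of 0.11 was -0.06 with TMM factors and 0.24 over the 26 that passed in both lines. The YAP targets CTGF (1.94 against 28.3, 3.35) and CYR61 (110.0 against 513, 2.21) were higher in MIA PaCa-2, and F3, at 1669, 1696 and 1614 in BxPC-3 and 0.787, 0.786 and 1.15 in MIA PaCa-2 (-9.77, SE 0.07), and AJUBA (381 against 33.4, -3.47) in BxPC-3. Of the S100 genes, S100A2 and S100A4 were at opposite ends, with differences of -7.51 and 5.84. The amino acid transporter SLC38A5 was at 189, 199 and 199 in BxPC-3 and 0.443, 1.25 and 0.502 in MIA PaCa-2 (-6.86, SE 0.12), and its relative SLC38A4 was higher in MIA PaCa-2 (1.06 against 11.3, 2.58). The zinc importer SLC39A10 was at 18.1, 15.9 and 16.7 in BxPC-3 and 114, 129 and 135 in MIA PaCa-2 (2.83, SE 0.07). In the sterol and fatty acid list no gene reached 4-fold toward MIA PaCa-2 and 1 did toward BxPC-3, ELOVL6 (41.6 against 9.48, -2.02).

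Some further values stand alone. Among 401 tested ZNF-named genes the widest differences were those of ZNF185 (447 against 1.12, -7.73), which is named for its fingers but is an actin-associated LIM protein, and of the KRAB zinc finger gene ZNF91 (0.45 against 34.7, 4.62). PIWIL1, an Argonaute relative of the germ line, was at 36.2, 35 and 32.9 in BxPC-3 and 0.393, 0.393 and 0.215 in MIA PaCa-2 (-4.74, SE 0.12). The 13 mitochondrially encoded mRNAs differed by at most 1.11 (MT_ND1) and -1.09 (MT_ND6), and MT_ND6 is the one of them encoded on the opposite strand.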
